A study of Homo sapiens with 36 samples.

Results

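The comparison described here is the response of wild-type (WT) THP-1 macrophages to lipopolysaccharide (LPS) plus interferon-gamma (IFN-γ) at 12 h. Its members were chosen by their titles alone: the 3 libraries of WT cells stimulated for 12 h and the 3 libraries of WT cells given vehicle for 12 h, which are 6 of the 36 libraries in the series, read across all genes. THP-1 is an established human monocytic leukemia line, so every library comes from a single tumour-derived line and not from blood monocytes of several donors. All cells, vehicle controls included, had first been held in 100 nM phorbol ester (PMA) for 72 h, which turns THP-1 monocytes into adherent macrophage-like cells, so every vehicle value is that of a PMA-treated cell. The stimulated cells received LPS at 200 ng/mL together with IFN-γ at 200 ng/mL, and neither agent was given alone, so their separate effects cannot be told apart. Further groups of 3 libraries serve below for comparison: WT cells given vehicle or both agents for 6 h and for 24 h, and cells labelled IRG1 knockout (KO) given vehicle or both agents for 12 h. ACOD1, for which IRG1 is an older symbol, encodes the mitochondrial enzyme that makes itaconate from the TCA cycle intermediate cis-aconitate. The labels number the replicates of each group 1 to 3 but do not say that they were separate cultures, so p-values measure the spread between these libraries, which may be technical.

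LPS is bound by LBP, CD14, LY96 (MD-2) and TLR4 on the macrophage surface, and signals through MYD88 and TICAM1 to NF-κB, the MAP kinases and IRF3. IFN-γ acts through the receptor chains IFNGR1 and IFNGR2 and the kinases JAK1 and JAK2, and the STAT dimers that form bind GAS elements in promoters. Type I interferon made in response to LPS adds complexes that contain STAT2 and IRF9 and bind ISRE elements. Together these signals give the classically activated macrophage, known for chemokine and cytokine release, antigen presentation, antimicrobial GTPases and itaconate production.

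The deposited values are log2 values per gene, and the 36 libraries share nearly one distribution, with library medians from 5.47 to 5.48 and the same lowest value of -0.34 and highest value of 16.7 in all 36. A value therefore gives a gene's place relative to the rest of its library, and a shift in total RNA per cell would not be seen. Read counts were not analysed here, so depth is unknown and no counting interval is given. The values are not scaled by gene length, so levels are not compared between genes, and a linear fold is given only where both group means reach 3.32, the log2 of 10. Pearson correlations across genes were 0.941 to 0.962 between the WT vehicle libraries at 12 h and 0.921 to 0.944 between the stimulated ones. All 15 macrophage markers fixed for the check were in the table, and their summed linear level was 81400 to 115000 in the vehicle and 85000 to 118000 in the stimulated libraries. Of 22 markers of other cell types (T, B, endothelial, epithelial and stromal cells among them), 13 were matched in the table, and their summed level was 113 to 333 in the vehicle and 231 to 477 in the stimulated libraries. The highest single value among those markers was 7.49 on the log2 scale in a vehicle and 7.67 in a stimulated library, CDH1 lay below 1 in all 3 vehicle libraries and CD2 lay below 1 in all 3 stimulated libraries.

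Genes outside the naming rule given with the processing were named after their values were seen, and each such gene kept its call, or its lack of one, without each of the 6 libraries in turn. The response was broad. Of 21232 genes tested, 8177 (38.5%) were called at a Benjamini-Hochberg adjusted p below 0.05 in limma: 3568 (16.8%) rose and 4609 (21.7%) fell. The shares of 16.8% and 21.7% are the background for each count of list members at 12 h in WT below. The median log2 change over all genes tested was -0.18, and single changes ran from -6.89 to 14.37. Larger changes leaned the other way. On the log2 scale 1793 called genes (8.44%) rose by 2 or more against 1141 (5.37%) that fell as far, and 176 (0.829%) rose by 5 or more against 20 (0.0942%) that fell as far. A gene at the library median (5.47 to 5.48) has less room to fall, down to -0.34, than to rise, up to 16.7. The part of this limit in these counts was not tested. The median size of a called change was 1.62, the smallest called change was 0.38, and the largest change that was not called was 3.34. Stimulated and vehicle libraries did not overlap for 4734 genes (22.3%) that lay higher and 6098 genes (28.7%) that lay lower. In bulk RNA of this kind, fewer cells of a type and less RNA per cell cannot be told apart. Among protein-coding genes 2527 of 15289 (16.5%) rose and 3737 (24.4%) fell, among long noncoding RNA genes 360 of 1870 (19.3%) rose and 317 (17.0%) fell, and among pseudogenes 297 of 2434 (12.2%) rose and 404 (16.6%) fell.

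**Figure D1:**
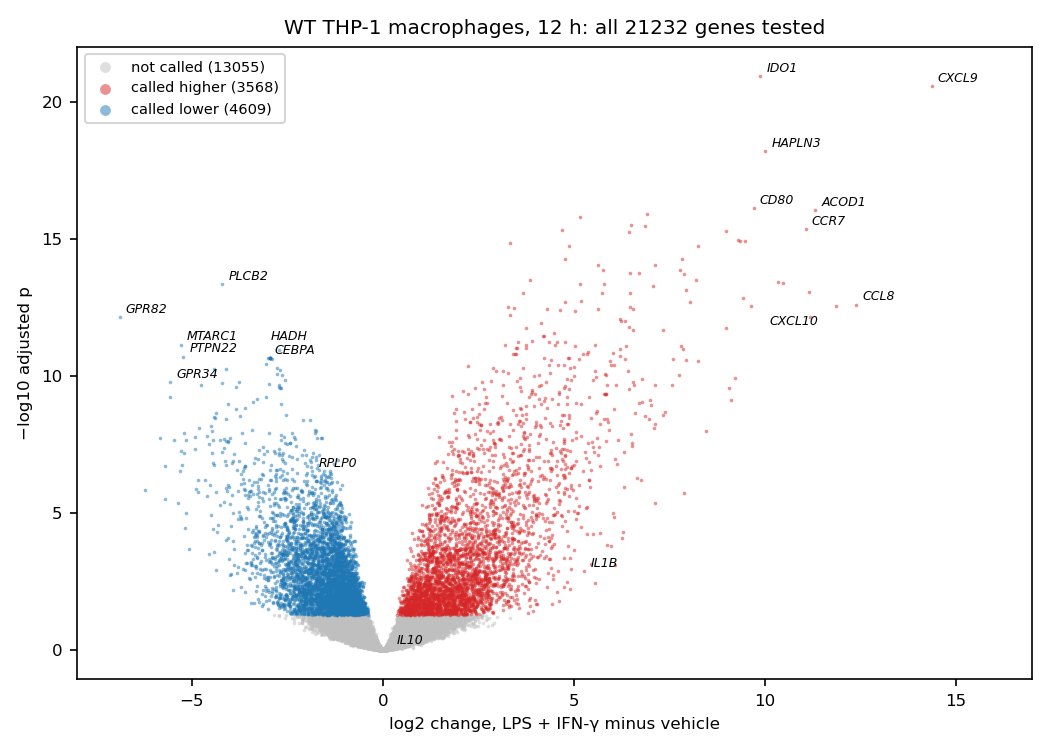
Log2 change (stimulated minus vehicle, WT, 12 h) on the x axis against −log10 of the adjusted p on the y axis for all 21232 genes tested, with genes called higher in red, called lower in blue and not called in grey. Rises reach 14.37 and falls reach -6.89, although more genes fell (4609) than rose (3568).

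The steepest rises were those of chemokine genes. CXCL9, which encodes a CXCR3 ligand that draws activated T cells and is known for its dependence on IFN-γ, stood at 0.74, 1.97 and 1.01 in the vehicle libraries and at 15.37, 16.05 and 15.41 in the stimulated libraries (log2 change 14.37 ± 0.40 SE, n = 3 per group, adjusted p 2.51e-21 by limma). Its stimulated values lay close to the top of the table's scale and its vehicle values near the bottom. CCL8, a ligand of CCR2 and other monocyte receptors, stood at 2.04, 3.61 and 4.38 against 16.12, 15.71 and 15.37 (12.39 ± 0.76, adjusted p 2.40e-13, 5363-fold). CXCL10, another CXCR3 ligand, stood at 2.22, 5.01 and 4.00 against 15.76, 15.60 and 15.45 (11.86 ± 0.73, adjusted p 2.71e-13, 3721-fold). Vehicle replicate 2 held the highest CXCL10 value of the vehicle libraries, and the stimulated libraries lay closer together than the controls. CXCL11, which shares the CXCR3 receptor, stood at 1.57, 4.20 and 2.72 against 14.51, 12.95 and 14.56 (11.18 ± 0.72, adjusted p 6.79e-13). CCL19, a ligand of CCR7, stood at -0.34, 0.44 and -0.24 against 10.47, 10.99 and 11.90 (11.17 ± 0.65, adjusted p 8.57e-14).

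**Figure D2:**
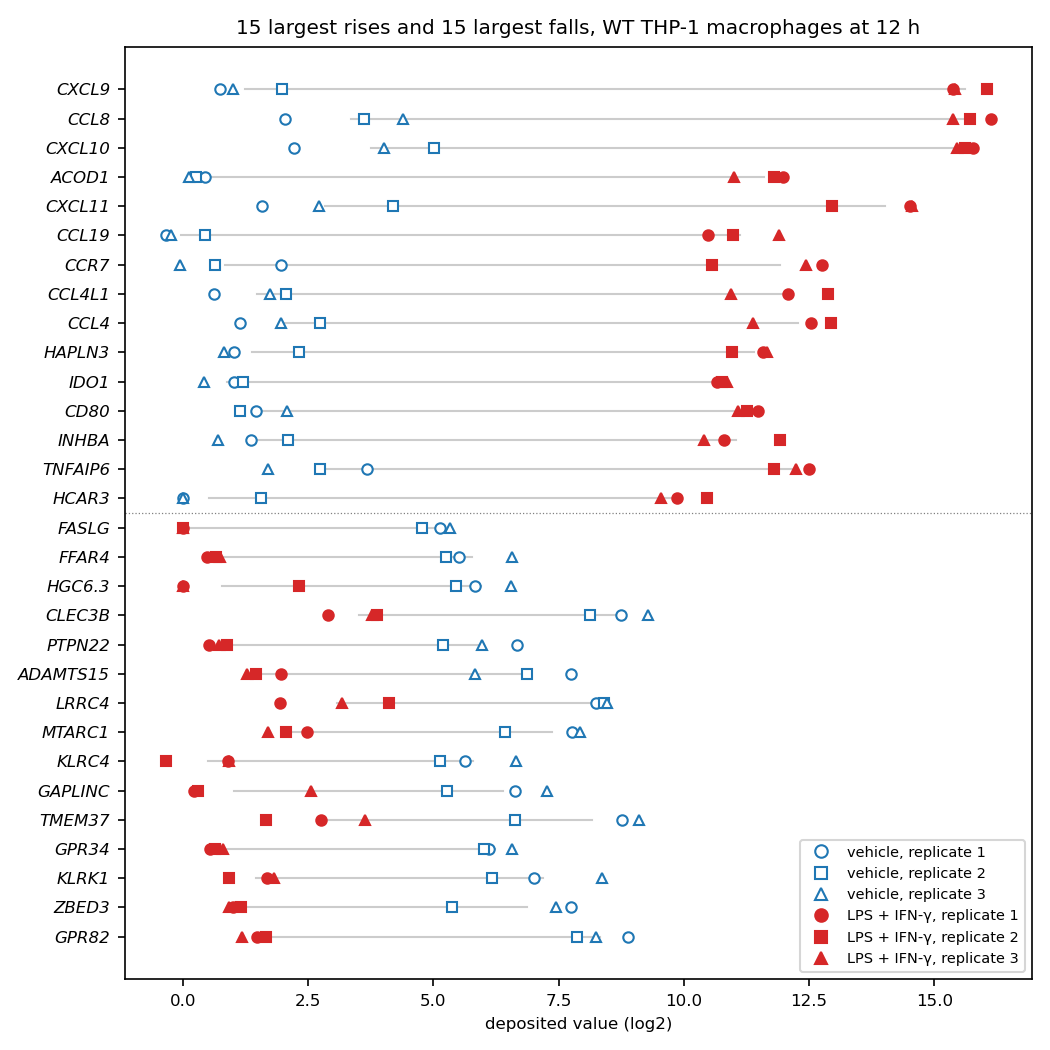
Deposited log2 value in each WT 12 h library (open blue symbols vehicle, filled red symbols LPS plus IFN-γ, symbol shape the replicate) for the 15 largest rises and 15 largest falls among called genes whose groups did not overlap. CXCL9 moves from at most 1.97 to at least 15.37, and GPR82 moves the other way, from at least 7.87 to at most 1.67.

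The promoters of the 4 leading CXC and CC chemokines are shown because they hold between them every motif class searched: the ISRE motif (TTTC, any 2 bases, then TTTC again), the GAS motif TTCNNNGAA and the kB motif, each read on both strands. Each line gives 250 bases up to the RefSeq start, 5′ to 3′ along the gene's own strand in GRCh38.p14, with motif matches in capitals. This is not the build named in the submitters' notes (GRCh37.p5), and no coordinate was carried between them. CXCL9 lies at chr4:76007510-76007759 on the minus strand, CXCL10 at chr4:76023498-76023747 on the minus strand, CXCL11 at chr4:76036071-76036320 on the minus strand and CCL8 at chr17:34319185-34319434 on the plus strand.
CXCL9: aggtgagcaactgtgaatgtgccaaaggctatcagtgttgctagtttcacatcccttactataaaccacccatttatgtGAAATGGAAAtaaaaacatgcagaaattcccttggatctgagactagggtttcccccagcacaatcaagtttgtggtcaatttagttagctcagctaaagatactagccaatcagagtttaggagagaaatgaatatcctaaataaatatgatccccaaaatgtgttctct
CXCL10: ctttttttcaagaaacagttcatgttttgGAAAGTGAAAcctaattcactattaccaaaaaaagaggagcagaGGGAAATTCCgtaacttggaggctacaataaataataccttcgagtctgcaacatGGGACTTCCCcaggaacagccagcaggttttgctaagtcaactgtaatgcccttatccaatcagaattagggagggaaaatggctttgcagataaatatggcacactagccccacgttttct
CXCL11: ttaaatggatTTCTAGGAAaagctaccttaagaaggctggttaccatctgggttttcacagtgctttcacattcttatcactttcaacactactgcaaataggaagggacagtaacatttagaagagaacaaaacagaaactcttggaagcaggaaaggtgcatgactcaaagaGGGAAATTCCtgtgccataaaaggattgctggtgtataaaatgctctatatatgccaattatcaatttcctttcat
CCL8: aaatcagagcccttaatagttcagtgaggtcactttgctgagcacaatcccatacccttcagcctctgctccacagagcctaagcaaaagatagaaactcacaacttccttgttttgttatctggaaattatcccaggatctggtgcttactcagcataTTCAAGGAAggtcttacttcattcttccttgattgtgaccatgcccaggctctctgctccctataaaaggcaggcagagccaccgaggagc

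In CXCL9 the capitals mark an ISRE match, GAAATGGAAA, 171 to 162 bases before the start. In CXCL10 they mark an ISRE match, GAAAGTGAAA, at 221 to 212 bases and the kB matches GGGAAATTCC at 177 to 168 and GGGACTTCCC at 122 to 113. In CXCL11 they mark a GAS match, TTCTAGGAA, at 240 to 232 and a kB match, GGGAAATTCC, at 76 to 67, and in CCL8 a GAS match, TTCAAGGAA, at 91 to 83. Across all 27305 promoters of the RefSeq table, 3.07% held an ISRE match, 6.78% a GAS match and 5.05% a kB match in the same 250 bases. A promoter was matched for 13736 of the genes tested, and the other 7496 were left out of these shares. Among called genes that rose, 5.03% of 2246 promoters held an ISRE match, 8.28% a GAS match and 9.17% a kB match, against 1.69%, 4.18% and 4.69% of the 3305 promoters of genes that fell and 2.37%, 5.82% and 5.38% of the 8185 promoters of genes not called. In the 104 promoters of genes that rose by 5 or more the shares were 10.6%, 12.5% and 16.3%. By list, 19 of 34 antiviral interferon-stimulated genes (55.9%) held an ISRE match, 9 of 23 chemokines (39.1%) and 4 of 9 NF-κB and IκB genes (44.4%) held a kB match, and 7 of 17 class I presentation genes (41.2%) held an ISRE match. Other pairs of list and motif varied. A GAS match was held by 7 of the 23 chemokines (30.4%) and 9 of the 34 antiviral genes (26.5%). A kB match was held by 6 of the 17 class I genes (35.3%). Low pairs were also found: 0 of the 17 class I genes held a GAS match. An ISRE match was held by 2 of the 23 chemokines (8.70%) and 1 of 21 brakes on signalling (4.76%). Of 5 guanylate-binding protein genes 1 held an ISRE match, 1 a GAS match and 2 a kB match. Matches of ISRE and GAS overlapped in 7 promoters, of GAS and kB in 9 and of ISRE and kB in 0. A match describes letters in this window and is not evidence of binding.

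Of the 30 chemokine genes tested, 24 rose and 1 fell, with a median log2 change of 5.59 beside -0.18 over all genes. The mean over the list was 3.16, 3.62 and 3.48 in the vehicle libraries and 9.18, 9.15 and 9.19 in the stimulated libraries. CCL4, which encodes the chemokine MIP-1β, stood at 1.14, 2.73 and 1.95 against 12.54, 12.93 and 11.39 (10.35 ± 0.58), and CCL4L1, a near-identical copy among which reads could be split, changed by 10.49 ± 0.59. Neutrophil-attracting CXCL1 stood at 5.24, 4.46 and 4.82 against 9.71, 10.61 and 9.00 (4.94 ± 0.41, adjusted p 1.30e-10, 30.6-fold). Further members were CCL3 (9.12), CXCL13 (7.90), CCL2 (7.03), CXCL8 (6.51) and CCL5 (6.37), ligands for monocytes, B cells, neutrophils and T cells. The member that fell was CCL24 (eotaxin-2), an eosinophil attractant counted among markers of alternatively activated macrophages, at 6.62, 3.32 and 7.25 against 2.38, 2.21 and 1.66 (-3.65 ± 0.84, adjusted p 0.00107). Vehicle replicate 2 was far below the other controls and still above every stimulated library.

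Of 15 chemokine receptor genes 4 rose (26.7%) and 3 fell (20.0%), beside 16.8% and 21.7% over all genes, and the median change was 0.21. CCR7, the receptor for CCL19 that guides dendritic cells to lymph nodes, stood at 1.97, 0.64 and -0.07 in the vehicle libraries and at 12.75, 10.56 and 12.44 in the stimulated ones (11.07 ± 0.50, adjusted p 4.07e-16). Monocyte trafficking receptors lay at the other end. CX3CR1, the fractalkine receptor, stood at 6.60, 8.34 and 7.63 against 2.46, 3.52 and 2.64 (-4.65 ± 0.60), and CCR2, the receptor for CCL2 and CCL8, at 9.39, 8.19 and 9.88 against 6.92, 3.94 and 5.26 (-3.78 ± 0.86, adjusted p 0.000902, 13.8-fold lower). CXCR2, the receptor for CXCL1 and CXCL8, changed by -3.42 ± 0.35. So CCL2, CCL8, CXCL1 and CXCL8 rose in the same libraries in which transcripts of their receptors CCR2 and CXCR2 fell.

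Cytokine genes rose in 24 of 36 tests and fell in 2, with a median change of 3.71. The fall count was 1 without stimulated replicate 1, stimulated replicate 2, vehicle replicate 1 or vehicle replicate 3. INHBA, whose product forms activin A, stood at 1.35, 2.11 and 0.70 against 10.80, 11.92 and 10.39 (9.65 ± 0.59, adjusted p 2.78e-13). IL6, the acute-phase cytokine, stood at -0.24, 0.31 and -0.17 against 8.12, 9.33 and 7.19 (8.25 ± 0.63). IL32 changed by 7.13 ± 0.37, and TNFSF10, which encodes the death ligand TRAIL, by 6.47 ± 0.38 (88.5-fold). IL27 stood at 0.68, 1.36 and 2.31 against 7.57, 6.38 and 7.85 (5.82 ± 0.47), and EBI3, the partner subunit of IL-27, rose by 5.31. IL12B, the p40 subunit shared by IL-12 and IL-23, stood at 0.44, 0.26 and 0.19 against 6.35, 7.60 and 4.88 (5.98 ± 1.15, adjusted p 0.000150). IL1B stood at 6.26, 9.39 and 6.28 against 11.90, 15.12 and 10.73 (5.28 ± 1.24, adjusted p 0.00124), with replicate 2 highest in both groups. TNF stood at 1.97, 1.83 and 1.74 against 5.58, 7.01 and 5.19 (4.08 ± 0.44), and replicate 2 was also the highest stimulated library for IL6 and IL12B. The largest fall was that of TNFSF14 (LIGHT), at 5.81, 5.83 and 6.21 against 1.52, 1.73 and 2.30 (-4.10 ± 0.32, adjusted p 5.57e-11).

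IL10, the anti-inflammatory cytokine of macrophages, was not called. It stood at 3.33, 2.80 and 3.06 in the vehicle and at 4.74, 2.72 and 2.32 in the stimulated libraries, which overlapped (0.20 ± 0.69, adjusted p 0.849). IFNB1, the type I interferon made downstream of TICAM1, was listed at 1.74, 0.00 and 0.00 in the vehicle and stood at 5.53, 6.32 and 4.62 in the stimulated libraries (4.91 ± 1.04, adjusted p 0.000442).

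Among cytokine receptors 12 of 33 rose and 6 fell, with a median of 0.50. IL15RA, which presents IL-15 to lymphocytes, stood at 2.57, 2.81 and 2.57 against 9.35, 8.32 and 9.62 (6.45 ± 0.30, adjusted p 5.40e-16), and IL15 itself rose by 4.30. IL2RA, the high-affinity chain for IL-2, changed by 5.79 ± 0.51 and IL7R by 5.10 ± 0.79 (34.2-fold). Receptors for TGF-β fell, with log2 changes of -2.22 for TGFBR1 and -2.60 for TGFBR2, and TNFRSF21 (death receptor 6) was 6.37-fold lower (-2.67 ± 0.45).

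Genes of the signalling pathways moved in both directions. Of 13 Toll-like receptors and LPS coreceptors 4 rose (30.8%) and 3 fell (23.1%), beside 16.8% and 21.7% over all genes (median 0.56 in the list). The count of rises was 2 without stimulated replicate 2 or without vehicle replicate 2. CD14 stood at 9.31, 7.70 and 9.19 against 5.88, 7.54 and 5.24 (-2.51 ± 0.57, adjusted p 0.000955, 5.71-fold lower), and in replicate 2 the groups came close to each other without overlapping. The flagellin receptor TLR5 changed by -3.52 ± 0.53 and CD180, a TLR4 homologue, by -4.11 ± 0.50 (17.3-fold lower). TLR3, the endosomal receptor for double-stranded RNA, stood at 2.36, 4.47 and 2.56 against 5.35, 5.17 and 5.84 (2.32 ± 0.60), and LBP, the serum protein that hands LPS to CD14, changed by 2.65 ± 0.67. The LPS receptor chains themselves were not called, with a log2 difference of -0.90 for TLR4 and -0.88 for LY96. Downstream adaptors and kinases rose in 10 of 19 and fell in 2 (median 0.89), and the fall count was 0 or 1 without stimulated replicate 1, stimulated replicate 3, vehicle replicate 1 or vehicle replicate 2. IRAK2, the kinase that sustains MYD88 signalling, stood at 3.58, 3.79 and 2.56 against 7.69, 8.85 and 7.60 (4.74 ± 0.53), TICAM1 rose 4.00-fold and MYD88 rose 3.24-fold.

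All 11 NF-κB and IκB genes tested rose, with a median of 2.81. Their mean was 5.75, 5.73 and 5.70 in the vehicle libraries and 8.74, 8.55 and 8.68 in the stimulated libraries. NFKBIA, the inhibitor IκBα and itself an NF-κB target, stood at 8.45, 7.85 and 8.79 against 12.92, 12.55 and 13.04 (4.47 ± 0.30, adjusted p 2.50e-12, 22.2-fold). NFKBIZ, a nuclear IκB that acts on secondary response genes, rose 18.8-fold, BCL3 16.1-fold, RELB of the noncanonical branch 14.9-fold and NFKB2 10.7-fold. RELA, the subunit of the classical dimer, rose by 1.82 on the log2 scale.

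Of 9 IRF genes 6 rose and 0 fell (median 1.40), and of 15 interferon receptor, JAK and STAT genes 9 rose and 1 fell (median 1.28). IRF1, an interferon-induced transcription factor, stood at 5.16, 4.85 and 5.11 against 9.92, 9.93 and 9.90 (4.87 ± 0.24, adjusted p 1.68e-15, 29.3-fold), with little spread within either group. IRF4 stood at 0.50, 0.66 and 0.47 against 6.61, 5.39 and 6.49 (5.62 ± 0.65), and IRF7, which amplifies type I interferon, rose 11.5-fold. IRF8, a lineage factor of monocytes that is often IFN-γ-responsive, differed by 0.07 and was not called. STAT4 rose 25.4-fold (4.67 ± 0.46). JAK2 rose 9.34-fold. The ligand-binding IFN-γ receptor chain IFNGR1 fell 2.63-fold (-1.40 ± 0.33), whereas IFNGR2 rose by 1.28.

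AP-1, EGR, NR4A and ATF genes rose in 16 of 21 and fell in 1 (median 2.15). NR4A3 stood at 1.46, 2.36 and 1.65 against 7.73, 6.49 and 7.80 (5.51 ± 0.46), ATF3 rose 32.6-fold and BATF2, an IFN-γ-responsive partner of IRF1, stood at 3.95, 4.63 and 4.69 against 8.74, 8.46 and 8.62 (18.2-fold). The member that fell was FOS, an immediate-early gene, at 8.71, 9.61 and 8.22 against 7.63, 7.01 and 7.05 (-1.62 ± 0.48, adjusted p 0.00874), and this call was lost without vehicle replicate 2, where the count was 0. Of 20 myeloid lineage factors 5 rose (25.0%) and 4 fell (20.0%), with a median of 0.08, shares not far from the 16.8% and 21.7% over all genes. The count of rises was 3 without stimulated replicate 3. CEBPB, the C/EBP factor of inflammatory activation, stood at 12.36, 11.48 and 11.99 against 15.65, 15.15 and 15.83 (3.60 ± 0.30, 12.1-fold). CEBPA, the C/EBP factor of myeloid differentiation, moved the other way, from 15.55, 15.08 and 15.60 to 12.55, 12.44 and 12.25 (-3.00 ± 0.23, 7.98-fold lower). PPARG, a lipid-sensing nuclear receptor of tissue macrophages, stood at 7.64, 7.16 and 7.48 against 3.00, 3.39 and 3.23 (-4.22 ± 0.48), and MAF, a transcription factor of differentiated macrophages, was 7.56-fold lower.

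Genes that restrain signalling rose alongside: 18 of 25 were higher and 2 lower (median 2.51). DUSP5, a nuclear ERK phosphatase, stood at 3.33, 3.83 and 2.94 against 10.96, 9.50 and 10.83 (7.06 ± 0.40, 134-fold). SOCS1, the inhibitor of JAK kinases, stood at 4.00, 3.03 and 3.07 against 9.54, 9.68 and 10.53 (6.54 ± 0.55, 93.2-fold). ZC3H12A (regnase-1), an RNase that degrades cytokine mRNAs, rose 36.5-fold and TNFAIP3 (A20), a ubiquitin editor, rose 28.4-fold. DUSP7 was 4.91-fold lower (-2.29 ± 0.50). Ubiquitin ligases and related genes of these pathways rose in 21 of 31 and fell in 2 (median 1.38), and with replicate number as a block the fall count was 4. RNF19B stood at 5.40, 5.40 and 5.28 against 10.47, 10.56 and 10.52 (5.15 ± 0.22, adjusted p 1.53e-16, 35.6-fold), with little spread within either group. NEURL3 changed by 7.84 ± 0.40 and UBD, which encodes the ubiquitin-like FAT10, by 6.16 ± 0.66, while RNF125, a ligase that acts on RIG-I, stood at 6.10, 5.77 and 5.80 against 1.07, 2.49 and 0.63 (-4.49 ± 0.45).

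Interferon-stimulated genes rose almost without exception. All 7 guanylate-binding proteins tested, GTPases that attack vacuoles of intracellular pathogens, rose, with a median of 6.33. GBP5 stood at 5.10, 5.48 and 4.22 against 13.24, 13.41 and 12.79 (8.21 ± 0.46, 297-fold), GBP4 rose 140-fold and GBP1 rose from 7.56, 8.80 and 7.82 to 14.96, 14.85 and 14.76 (6.80 ± 0.62, 111-fold). Of 46 antiviral interferon-stimulated genes 45 rose and 0 fell, with a median of 3.18. The exception, SAMHD1, a dNTP hydrolase that limits retroviruses, differed by -0.55 and was not called. The list mean was 6.38, 8.05 and 7.34 in vehicle replicates 1 to 3 and 10.84, 10.36 and 10.65 in the stimulated libraries, so vehicle replicate 2 was the highest control and stimulated replicate 2 the lowest stimulated library. RSAD2 (viperin) stood at 4.68, 8.02 and 6.59 against 13.29, 11.97 and 12.99 (6.32 ± 0.71, 79.8-fold), and IFIT2, an antiviral RNA-binding protein, at 7.91, 9.88 and 8.73 against 15.08, 13.55 and 13.87 (5.32 ± 0.80). ISG20, an exonuclease, rose 86.2-fold, and APOL3, an apolipoprotein L with bactericidal activity, stood at 3.10, 2.91 and 2.48 against 9.20, 9.29 and 9.48 (6.50 ± 0.29).

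Antigen presentation rose on both arms. Class II genes rose in 13 of 18 and fell in 0 (median 2.00), and with replicate number as a block 1 member was called lower. CIITA, the master activator of class II genes, stood at 2.20, 1.39 and 2.93 against 5.05, 5.90 and 5.83 (3.42 ± 0.53, adjusted p 8.04e-06). HLA-DRA stood at 3.66, 2.58 and 5.33 against 8.25, 9.35 and 9.00 (5.01 ± 0.60, 32.3-fold) and CD74, the invariant chain, rose by 2.16, whereas the peptide editor HLA-DMA differed by 0.51 and was not called. The list mean spread from 4.18 to 5.58 over the vehicle libraries and from 6.26 to 7.29 over the stimulated ones. Class I presentation and immunoproteasome genes rose in 17 of 21 and fell in 1 (median 1.72), and the fall count was 0 without stimulated replicate 1, stimulated replicate 2 or vehicle replicate 3. TAP1, a chain of the peptide transporter, stood at 4.33, 4.66 and 4.77 against 9.45, 8.90 and 9.75 (4.78 ± 0.24, 27.4-fold), TAP2 rose 10.0-fold (3.32 ± 0.16), and the immunoproteasome subunit PSMB9 rose 8.72-fold. HLA genes are highly similar to each other, so their single values are less certain than those of the other genes named.

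Costimulatory and checkpoint ligands rose in 12 of 18 and fell in 1 (median 2.41). CD80, the ligand of CD28 and CTLA4, stood at 1.46, 1.14 and 2.07 against 11.48, 11.26 and 11.07 (9.71 ± 0.40, adjusted p 7.41e-17), whereas CD86, which shares those receptors, differed by 0.78 and was not called. CD274 (PD-L1) stood at 1.11, 1.18 and 1.04 against 9.24, 9.00 and 8.78 (7.90 ± 0.43), and CD40 rose 35.8-fold. LAMP3, a marker of mature dendritic cells, changed by 9.35 ± 0.45. VSIR, which encodes the checkpoint protein VISTA, stood at 10.19, 8.38 and 9.83 against 6.87, 5.98 and 6.65 (-2.97 ± 0.41, 7.83-fold lower). Among adhesion molecules 7 of 25 rose (28.0%) and 5 fell (20.0%), beside 16.8% and 21.7% over all genes (median 0.26 in the list). The fall count was 3 without stimulated replicate 3 or vehicle replicate 1. VCAM1 stood at 0.86, 1.68 and 0.52 against 9.73, 10.35 and 9.95 (8.99 ± 0.60), ICAM1 rose 20.8-fold, and ITGAM, the CD11b integrin chain, was 2.46-fold lower (-1.30 ± 0.25).

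**Figure D3:**
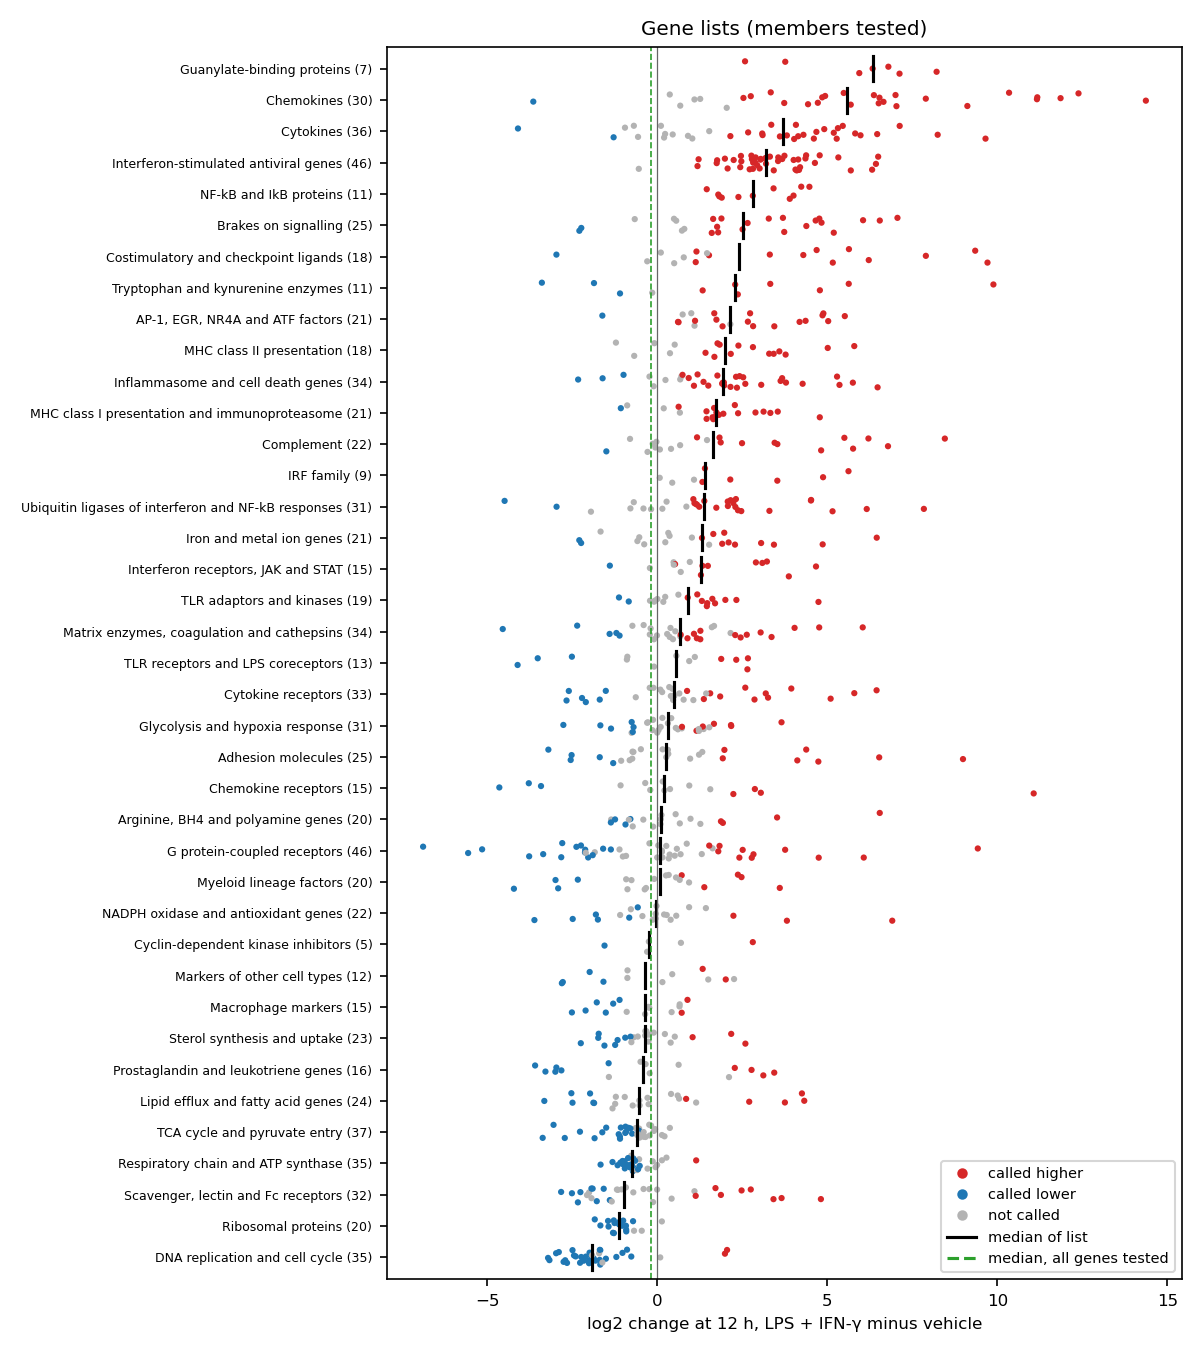
Log2 change at 12 h (stimulated minus vehicle) of every tested member of 39 gene lists, one line per list with the number of members tested in brackets, points coloured by call, a black mark for the list median and a dashed line for the median of all genes tested (-0.18). All 11 NF-κB genes and all 7 guanylate-binding proteins lie on the side of rises, and 17 of 20 ribosomal protein genes were called lower.

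Enzymes of metabolite pathways known from activated macrophages were among the leading genes. ACOD1 stood at 0.43, 0.26 and 0.12 in the vehicle and at 11.97, 11.80 and 11.00 in the stimulated libraries (11.32 ± 0.47, adjusted p 8.67e-17). In the libraries labelled KO and stimulated for 12 h, ACOD1 stood at 7.98, 10.22 and 8.49, so its transcript still rose there, and the difference in response from WT was not called (adjusted p 0.130). A gene-level value does not show where the gene was edited, so it does not check the KO label. IDO1, which starts the breakdown of tryptophan to kynurenine, had the smallest adjusted p of the genes named here, at 1.02, 1.20 and 0.42 against 10.67, 10.76 and 10.87 (9.89 ± 0.26, adjusted p 1.06e-21). Of 11 tryptophan and kynurenine genes 7 rose and 3 fell (median 2.29). The fall of QPRT, which carries the pathway on to NAD, from 9.58, 8.82 and 9.58 to 6.31, 4.55 and 6.93 was 10.5-fold (-3.40 ± 0.48), whereas KYNU, the kynureninase of the same pathway, rose 10.0-fold. WARS1, the tryptophanyl-tRNA synthetase, rose 27.5-fold. GCH1, the first enzyme of tetrahydrobiopterin synthesis, stood at 2.01, 2.77 and 1.71 against 8.60, 8.42 and 9.09 (6.54 ± 0.41). NOS2, the inducible nitric oxide synthase that uses this cofactor, differed by 0.09 and was not called. The wider arginine, tetrahydrobiopterin and polyamine list had 4 of 20 higher (20.0%) and 4 lower (20.0%), near the 16.8% and 21.7% over all genes (median 0.10 in the list). The fall count was 1 without stimulated replicate 1 or stimulated replicate 3.

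Cell death and inflammasome genes rose in 26 of 34 and fell in 3 (median 1.94), and the fall count was 1 without stimulated replicate 1 or vehicle replicate 3. BIRC3, an inhibitor of apoptosis, stood at 2.25, 1.77 and 1.96 against 8.74, 7.65 and 9.04 (6.48 ± 0.35), FAS at 2.62, 1.36 and 1.69 against 7.41, 6.77 and 7.56 (5.36 ± 0.40), and AIM2, a sensor of cytosolic DNA, at 2.76, 4.65 and 2.55 against 8.53, 8.67 and 8.62 (5.29 ± 0.60). CASP1, CASP4 and GSDMD, the caspases and pore former of pyroptosis, rose by 1.91, 2.34 and 2.15. NLRP3 differed by -0.11 and was not called, and NLRC4, the sensor scaffold for flagellin, was 5.03-fold lower (-2.33 ± 0.39).

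In the NADPH oxidase and antioxidant list 3 of 22 rose and 6 fell (median -0.05), and the fall count was 3 without stimulated replicate 1. SOD2, the mitochondrial superoxide dismutase, stood at 7.07, 6.43 and 6.83 against 13.98, 13.12 and 13.96 (6.91 ± 0.29, adjusted p 1.17e-16, 120-fold). CAT, the enzyme that removes hydrogen peroxide, stood at 10.66, 8.99 and 10.57 against 6.55, 6.26 and 6.55 (-3.62 ± 0.34, 12.3-fold lower). The subunits of glutamate-cysteine ligase, which makes the glutathione precursor, diverged: the catalytic GCLC was 5.62-fold lower (-2.49 ± 0.56) and the modifier GCLM was 4.72-fold higher (2.24 ± 0.40). HMOX1, a target of NRF2, stood at 10.54, 11.27 and 10.71 against 11.01, 10.54 and 12.13, and the groups overlapped (0.39 ± 0.44, adjusted p 0.514). Iron and metal ion genes rose in 10 of 21 and fell in 2 (median 1.31). MT2A, a metallothionein, stood at 3.92, 6.32 and 5.07 against 11.26, 11.74 and 11.68 (6.45 ± 0.56, 87.6-fold), and MT1M, MT1E, MT1A and MT1F of the same closely similar family also rose. FTH1, the ferritin heavy chain, rose by 1.31 and the iron exporter SLC40A1 fell by 2.24.

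Of 16 prostaglandin and leukotriene genes 4 rose (25.0%) and 6 fell (37.5%), with a median of -0.42, beside 16.8% and 21.7% over all genes. The falls included leukotriene enzymes: LTA4H stood at 10.06, 9.35 and 9.80 against 5.56, 6.96 and 5.91 (-3.60 ± 0.44, 12.1-fold lower), ALOX5AP was 8.00-fold lower and ALOX5 was 7.84-fold lower. TBXAS1, thromboxane synthase, was 9.80-fold lower (-3.29 ± 0.46). PTGES, the inducible prostaglandin E synthase, stood at 3.95, 2.13 and 2.05 against 6.18, 6.18 and 6.08 (3.44 ± 0.73), and PTGER4, a receptor for prostaglandin E, rose 8.68-fold. Complement genes rose in 12 of 22 and fell in 1 (median 1.64). C1QB, a chain of the C1q recognition molecule, stood at 1.12, 0.83 and 1.65 against 7.24, 8.40 and 8.31 (6.78 ± 0.56), and SERPING1, the C1 inhibitor, at 2.78, 3.28 and 2.88 against 8.52, 8.97 and 8.72 (5.76 ± 0.31). C1QA, whose product assembles with that of C1QB, differed by -0.03 and was not called. C5 was 2.83-fold lower (-1.50 ± 0.43).

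Scavenger, lectin and Fc receptors rose in 8 of 32 (25.0%) and fell in 9 (28.1%), with a median of -0.99, shares not far from the 16.8% and 21.7% over all genes. The fall count was 5 without vehicle replicate 1. TREM2, a lipid-sensing receptor of tissue macrophages, stood at 9.86, 9.61 and 10.15 against 7.07, 5.95 and 8.10 (-2.83 ± 0.53, 7.12-fold lower), and TYRO3, a receptor for apoptotic cells, changed by -2.51 ± 0.47. CLEC4E (Mincle), a receptor for mycobacterial glycolipid, stood at 4.23, 0.61 and 3.60 against 7.57, 7.78 and 7.52 (4.81 ± 0.83), and LILRB2 rose 10.7-fold. G protein-coupled receptors fell in 15 of 46 and rose in 11 (median 0.08), and held the largest fall of the comparison. GPR82, an orphan receptor, stood at 8.88, 7.87 and 8.24 against 1.48, 1.67 and 1.17 (-6.89 ± 0.44, adjusted p 6.72e-13). GPR34, a lysophosphatidylserine receptor known from microglia, stood at 6.12, 6.00 and 6.57 against 0.53, 0.64 and 0.81 (-5.57 ± 0.46), and FFAR4, a receptor for long-chain fatty acids, at 5.52, 5.26 and 6.56 against 0.48, 0.66 and 0.73 (-5.16 ± 0.55). HCAR3, a receptor for hydroxylated fatty acids, rose by 9.43 ± 0.56 from vehicle values near the bottom of the scale (0.01, 1.56 and 0.00). Its WT vehicle libraries stood at 3.24, 2.31 and 4.76 at 6 h and at 3.82, 2.98 and 2.66 at 24 h. Its changes at those times were 6.74 and 6.66, and neither difference from 12 h was called. HCAR2, the niacin receptor, rose by 6.07 ± 0.71, and HCAR2 and HCAR3 are near-identical copies among which reads could be split. PLCB2, a phospholipase C downstream of such receptors, stood at 9.94, 9.86 and 9.58 against 5.41, 6.13 and 5.21 (-4.21 ± 0.24, adjusted p 4.25e-14, 18.5-fold lower).

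Further leading falls lay outside the lists. PTPN22, a phosphatase of immune receptor signalling, stood at 6.67, 5.18 and 5.96 against 0.52, 0.88 and 0.71 (-5.23 ± 0.39), and MTARC1, a mitochondrial amidoxime reductase, at 7.76, 6.42 and 7.92 against 2.48, 2.05 and 1.70 (-5.29 ± 0.38). KLRK1, known as the NKG2D receptor of lymphocytes, changed by -5.71 ± 0.82 and KLRC4 by -5.31 ± 0.66, and a readthrough gene joins the pair, so their reads may be shared. FASLG, the ligand of FAS, stood at 5.14, 4.78 and 5.34 in the vehicle libraries and was listed at 0.00, 0.00 and 0.01 in the stimulated ones. The long noncoding RNA GAPLINC changed by -5.36 ± 0.79. HADH, a mitochondrial enzyme of fatty acid oxidation, stood at 8.02, 8.40 and 8.03 against 5.23, 5.77 and 5.34 (-2.71 ± 0.20, 6.52-fold lower). On the side of rises, TNFAIP6, a hyaluronan-binding protein, changed by 9.47 ± 0.45 and HAPLN3, a hyaluronan link protein, stood at 1.02, 2.31 and 0.82 against 11.57, 10.96 and 11.67 (10.02 ± 0.34, adjusted p 6.16e-19). Matrix enzymes, coagulation factors and cathepsins rose in 14 of 34 and fell in 5 (median 0.68), and the fall count was 2 without stimulated replicate 2 and 3 without vehicle replicate 1. MMP12, macrophage elastase, stood at 1.97, 2.91 and 1.71 against 9.59, 6.21 and 8.91 (6.04 ± 0.94), and F13A1, a transglutaminase marker of alternatively activated macrophages, at 5.63, 4.07 and 5.13 against 0.47, 0.30 and 0.41 (-4.55 ± 0.50).

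Energy metabolism genes were lower as groups. None of the 37 TCA cycle and pyruvate entry genes rose and 19 fell (median -0.60), and the list mean was 7.93, 7.70 and 7.73 in the vehicle libraries and 6.80, 7.11 and 6.84 in the stimulated ones. MDH1, cytosolic malate dehydrogenase, stood at 9.72, 9.40 and 9.73 against 7.75, 8.09 and 8.15 (-1.62 ± 0.17, adjusted p 1.74e-08, 3.07-fold lower). IDH2, mitochondrial isocitrate dehydrogenase, was 3.60-fold lower (-1.85 ± 0.26), and PC, pyruvate carboxylase, stood at 7.89, 6.97 and 6.93 against 3.62, 5.02 and 3.02 (-3.37 ± 0.61, 10.4-fold lower). SLC25A10, the mitochondrial dicarboxylate carrier, changed by -2.72 ± 0.41. The succinate dehydrogenase subunits SDHB, SDHC and SDHD differed by -0.18, -0.07 and -0.40 and were not called. Respiratory chain and ATP synthase genes rose in 1 of 35 and fell in 21 (median -0.73), and the fall count was 12 without stimulated replicate 1. NDUFB10, a complex I subunit, stood at 10.65, 10.17 and 10.66 against 8.78, 8.77 and 8.92 (-1.67 ± 0.25, 3.18-fold lower), and NDUFS3 was 2.25-fold lower. The member that rose was NDUFA9, also of complex I, at 7.83, 7.90 and 8.00 against 8.90, 8.80 and 9.46 (1.14 ± 0.23, adjusted p 0.000279, 2.21-fold).

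Glycolysis and hypoxia genes did not move as a group, with 7 of 31 higher and 6 lower (median 0.31). The count of rises was 4 without vehicle replicate 3 and the count of falls was 3 without vehicle replicate 1. SLC2A6, a lysosomal hexose transporter, stood at 4.36, 3.84 and 4.15 against 7.95, 7.52 and 7.83 (3.65 ± 0.35, 12.6-fold) and PFKFB3, which makes an activator of phosphofructokinase, rose 3.17-fold (1.66 ± 0.39). HK3, a myeloid hexokinase, was 6.80-fold lower (-2.77 ± 0.44). HK2, PKM and LDHA differed by 0.72, 0.10 and -0.28 and were not called. In the sterol list 3 of 23 rose and 8 fell (median -0.36), and the fall count was 3 without stimulated replicate 1, 5 without stimulated replicate 3 and 5 without vehicle replicate 3. LSS, lanosterol synthase, was 4.51-fold higher (2.17 ± 0.39). Lipid efflux and fatty acid genes rose in 5 of 24 (20.8%) and fell in 6 (25.0%), with a median of -0.53, shares near the 16.8% and 21.7% over all genes. NR1H3, the oxysterol receptor LXRα, stood at 4.60, 3.86 and 4.70 against 8.76, 8.26 and 8.90 (4.25 ± 0.59, 19.1-fold), CH25H, which makes an oxysterol, changed by 4.32 ± 0.78, and LPL, lipoprotein lipase, stood at 8.94, 10.54 and 8.20 against 6.63, 4.68 and 6.39 (-3.33 ± 0.75, 10.0-fold lower).

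Of the 39 lists described, those of ribosomal proteins and of DNA replication and the cell cycle had the highest shares of falls, 85.0% and 82.9%. Of 35 DNA replication and cell cycle genes 29 fell and 2 rose (median -1.94), and the count of rises was 1 without stimulated replicate 2 or vehicle replicate 3. The list mean was 7.43, 7.99 and 7.20 in the vehicle libraries and 6.26, 5.20 and 5.90 in the stimulated ones, so replicate 2 was the highest control and the lowest stimulated library. MCM6, a subunit of the replicative helicase, stood at 8.86, 10.23 and 8.55 against 5.74, 6.44 and 5.93 (-3.17 ± 0.51, 9.03-fold lower), and E2F1, a transcription factor of S-phase entry, at 6.36, 7.65 and 6.16 against 3.58, 3.20 and 3.74 (-3.21 ± 0.49, 9.28-fold lower). TYMS, thymidylate synthase, was 6.55-fold lower. Of 5 cyclin-dependent kinase inhibitors tested, CDKN1A (p21) rose, from 9.15, 9.62 and 8.44 to 12.22, 12.05 and 11.38 (2.81 ± 0.41, 7.00-fold). CDKN1B (p27) stood at 9.14, 8.69 and 9.29 against 9.82, 9.43 and 9.95 (0.69 ± 0.29), with an adjusted p of 0.0606 that became 0.00619 with replicate number as a block, where 2 members of this list were called higher. The count of these inhibitors called higher was also 2 without stimulated replicate 2, and the single fall, that of CDKN2C (-1.55 ± 0.57, adjusted p 0.0313), was lost without stimulated replicate 2, vehicle replicate 1 or vehicle replicate 3.

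Of 20 ribosomal protein genes 17 fell and 0 rose (median -1.12). Their mean was 9.67, 9.47 and 9.85 in the vehicle and 8.50, 8.87 and 8.40 in the stimulated libraries, without overlap. RPLP0, a stalk protein of the large subunit, stood at 10.39, 9.86 and 10.28 against 8.48, 8.76 and 7.77 (-1.84 ± 0.23, 3.58-fold lower), and RPS6 of the small subunit at 11.07, 11.20 and 11.25 against 9.52, 10.06 and 9.58 (-1.45 ± 0.21, 2.73-fold lower). RPS9 differed by 0.13 and was not called. Many ribosomal protein genes have processed pseudogenes that can share their reads, and falls here are relative to the other genes of the same libraries.

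Markers of macrophage identity were not uniform. Of the 15 markers 2 rose and 6 fell (median -0.36). The rise count was 0 without stimulated replicate 3 and 1 without stimulated replicate 1, vehicle replicate 2 or vehicle replicate 3, and the fall count was 3 without vehicle replicate 1. CD68 differed by -0.26 and was not called. LYZ, lysozyme, stood at 13.32, 11.25 and 12.93 against 10.65, 10.82 and 9.69 (-2.11 ± 0.53, 4.32-fold lower). Of 12 markers of other cell types tested 2 rose and 4 fell (median -0.36). COL1A1, a fibroblast collagen, stood at 4.62, 3.93 and 5.51 against 6.72, 5.74 and 7.64 (2.01 ± 0.44, 4.03-fold), and VWF, an endothelial marker, changed by -1.99 ± 0.43. The part of these markers in the other results was not tested.

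Set beside the earlier and later times, 12 h lay between the others for several lists. Each time has its own vehicle libraries. At 6 h 15.1% of genes rose and 20.9% fell, and at 24 h 20.2% rose and 26.1% fell, beside 16.8% and 21.7% at 12 h. Ribosomal protein genes fell in 3 of 20 at 6 h, 17 at 12 h and 19 at 24 h, with medians of -0.38, -1.12 and -1.95. Respiratory chain genes fell in 11, 21 and 31 of 35, with medians of -0.42, -0.73 and -1.24, and cell cycle genes in 23, 29 and 31 of 35, with medians of -1.61, -1.94 and -3.10. The median of all genes was -0.17, -0.18 and -0.11 at the same times. Cytokine medians ran downward, from 4.86 to 3.71 and 2.34, with 29, 24 and 21 of 36 genes higher. IL12B changed by 7.20, 5.98 and 2.46 and IL27 by 8.21, 5.82 and 2.96 at 6, 12 and 24 h. None of these differences from 12 h was called by limma. Adjusted p was 0.98 (6 h) and 0.603 (24 h) for IL12B and 0.191 and 0.159 for IL27. Chemokine medians were 5.70, 5.59 and 5.25 and those of guanylate-binding proteins 6.15, 6.33 and 7.24. Sterol genes fell in 16 of 23 at 6 h, 8 at 12 h and 6 at 24 h. These counts and medians describe each time, and differences between times were tested gene by gene only.

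**Figure D4:**
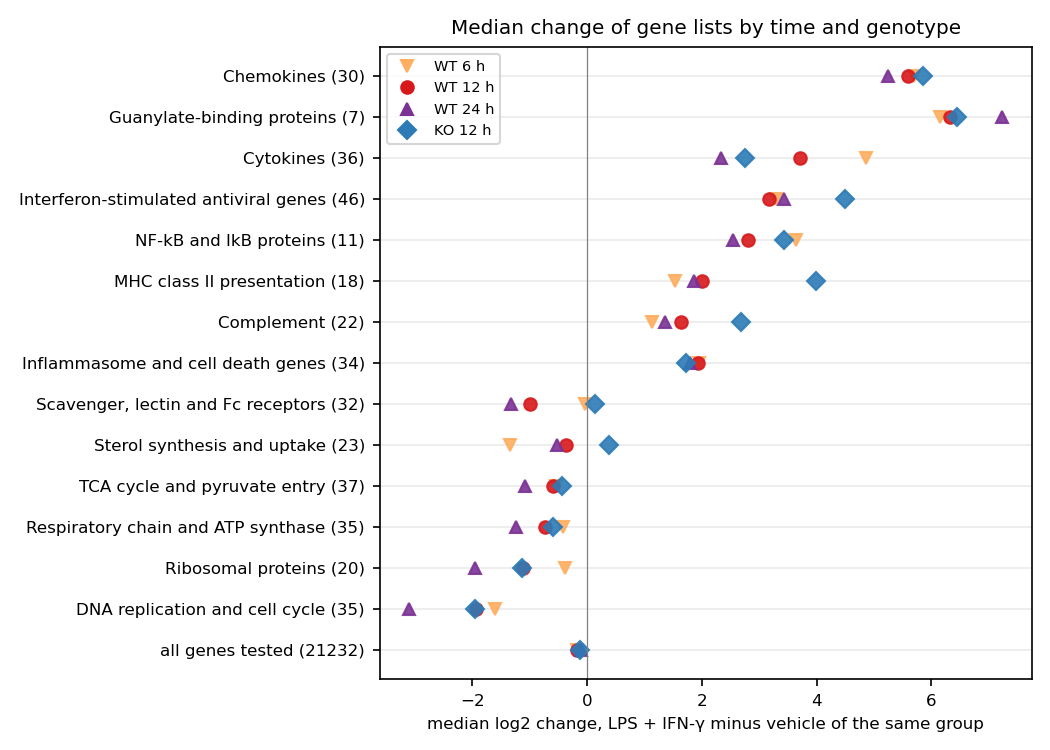
Median log2 change (stimulated minus vehicle of the same time and genotype, x axis) of selected gene lists, with a symbol for WT at 6, 12 and 24 h and for KO at 12 h and the number of members tested in brackets. The ribosomal protein medians run from -0.38 at 6 h through -1.12 at 12 h to -1.95 at 24 h in WT, and the KO median at 12 h is -1.13.

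By the test of the difference itself, the response at 12 h differed from that at 6 h for 16 of 21232 genes (0.0754%), of which 3 (0.0141%) had the higher and 13 (0.0612%) the lower change at 12 h. With replicate number as a block the count was 111. Of the 16, 8 kept their call without each of the 12 libraries in turn. TSLP, an epithelial-type alarmin cytokine, stood at 8.11, 7.48 and 6.54 in the WT libraries stimulated for 6 h but at 2.73, 2.73 and 2.33 in those stimulated for 12 h, where vehicle stood at 2.08, 1.37 and 1.70. Its change was 5.90 at 6 h and 0.88 at 12 h (difference -5.02 ± 0.66, adjusted p 0.000266). STK39, a kinase that regulates ion transport, stood at 7.19, 7.63 and 7.44 after 6 h of stimulation and at 3.97, 4.14 and 4.45 after 12 h, below the 12 h vehicle libraries at 5.60, 5.84 and 5.87. So its change turned from 1.77 to -1.58 (difference -3.35 ± 0.34, adjusted p 3.22e-06). EXT1, a heparan sulfate polymerase, changed by 2.62 at 6 h and -0.49 at 12 h (difference -3.10 ± 0.42, adjusted p 0.000280). CCR3, the eotaxin receptor, stood at 3.57, 3.46 and 2.43 after 6 h of stimulation and at 5.90, 5.40 and 6.33 after 12 h, with changes of -2.89 and 0.16 (difference 3.05 ± 0.53, adjusted p 0.00788). TSLP, STK39, EXT1 and CCR3 are among the 8 that kept their call. In a fit on only the libraries compared, TSLP, STK39 and EXT1 were called and CCR3 was not.

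Between 12 h and 24 h only 4 genes (0.0188%) differed in response, all with the higher change at 24 h, and 44 did with replicate number as a block. None of the 4 kept its call without each of the 12 libraries in turn, and the count was 0 without stimulated replicate 3 or vehicle replicate 1 at 12 h, without stimulated replicate 1 at 24 h, or without vehicle replicate 2 or 3 at 24 h. It was 2 without stimulated replicate 1 at 12 h or vehicle replicate 1 at 24 h, 17 without stimulated replicate 2 at 12 h and 11 without stimulated replicate 3 at 24 h.

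In the cells labelled KO, 15.5% of genes rose and 19.5% fell at 12 h. List medians in KO lay on either side of those in WT, and the difference between list medians was not tested. They were 4.49 beside 3.18 for antiviral genes, 3.99 beside 2.00 for class II genes (16 of 18 higher beside 13 of 18) and 2.69 beside 1.64 for complement. In the other direction they were 2.75 beside 3.71 for cytokines, 1.49 beside 2.29 for tryptophan and kynurenine genes, 1.58 beside 2.15 for AP-1, EGR, NR4A and ATF factors and 1.97 beside 2.51 for brakes on signalling. Each change is from vehicle of the same genotype, so a larger change need not mean a higher stimulated level. IFIT2 stood at 5.51, 7.83 and 5.13 in KO vehicle, beside 7.91, 9.88 and 8.73 in WT vehicle. Stimulated, it stood at 12.62, 13.21 and 12.54 in KO, beside 15.08, 13.55 and 13.87 in WT. HLA-DRA went the other way when stimulated, at 10.38, 10.55 and 10.51 in KO beside 8.25, 9.35 and 9.00 in WT. Gene by gene, the response differed between KO and WT for 34 genes (0.160%), of which 13 (0.0612%) had the higher and 21 (0.0989%) the lower change in KO, and for 115 genes with replicate number as a block. Of the 34, 4 kept their call without each of the 12 libraries in turn. PDGFB, a growth factor for fibroblasts and pericytes, was one of them: it stood at 0.67, 0.30 and 1.10 in WT vehicle and 6.64, 5.73 and 7.24 in WT stimulated libraries, but at 0.21, 0.43 and 0.06 in KO vehicle and 1.28, 3.09 and 1.42 in KO stimulated libraries (difference -4.15 ± 0.67, adjusted p 0.00796). PMFBP1, known from the sperm head-tail junction, was another, at 5.06, 4.85 and 4.27 in WT vehicle and 0.80, 1.52 and 0.69 in WT stimulated libraries, and at 1.54, 2.27 and 1.24 in KO vehicle and 1.09, 0.92 and 1.20 in KO stimulated libraries. Its KO vehicle libraries lay below the WT ones (change -3.73 in WT and -0.61 in KO, difference 3.12 ± 0.51, adjusted p 0.00796). TMCC3, an endoplasmic reticulum membrane protein, stood at 4.08, 3.54 and 3.60 in WT vehicle and 6.80, 7.31 and 6.94 in WT stimulated libraries, and at 0.91, 1.81 and 2.07 in KO vehicle and 8.56, 9.04 and 7.99 in KO stimulated libraries. Its difference of 3.66 (adjusted p 0.0160) was lost without KO vehicle replicate 1, WT vehicle replicate 1 or WT vehicle replicate 3, with adjusted p up to 0.0738. Among the 10 alternatives that left out none of these libraries, TMCC3 lost its call in 0. PDGFB and PMFBP1 each lost theirs in 1, which for PDGFB was the fit on only the libraries compared.

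For CXCL1 the genotypes lay apart in the controls and overlapped after stimulation, and they were not tested against each other within either treatment. Its KO vehicle libraries stood at 1.28, 1.42 and 0.80, below the WT vehicle libraries at 5.24, 4.46 and 4.82, while the stimulated libraries of the genotypes overlapped, at 8.43, 9.11 and 9.20 in KO beside 9.71, 10.61 and 9.00 in WT. The difference in response was 2.81 ± 0.58 (adjusted p 0.0349), and it was lost without replicate 2 or 3 of KO stimulated, replicate 1 or 3 of KO vehicle, replicate 1 or 3 of WT stimulated, or replicate 1 or 3 of WT vehicle, with adjusted p up to 0.126. The count of 34 was 4 without WT vehicle replicate 3, 8 without KO vehicle replicate 1, 11 without WT vehicle replicate 1 and 15 to 22 without KO vehicle replicate 3, KO stimulated replicate 1 or 3, WT stimulated replicate 1 or 3, or WT vehicle replicate 2. It was 76 without WT stimulated replicate 2 and 83 without KO vehicle replicate 2. The 12 h to 6 h count of 16 was 8 without vehicle replicate 2 at 6 h, 9 without stimulated replicate 1 at 12 h, 10 without stimulated replicate 3 at 6 h or vehicle replicate 1 or 2 at 12 h, and 29 without stimulated replicate 2 at 12 h.

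**Figure D5:**
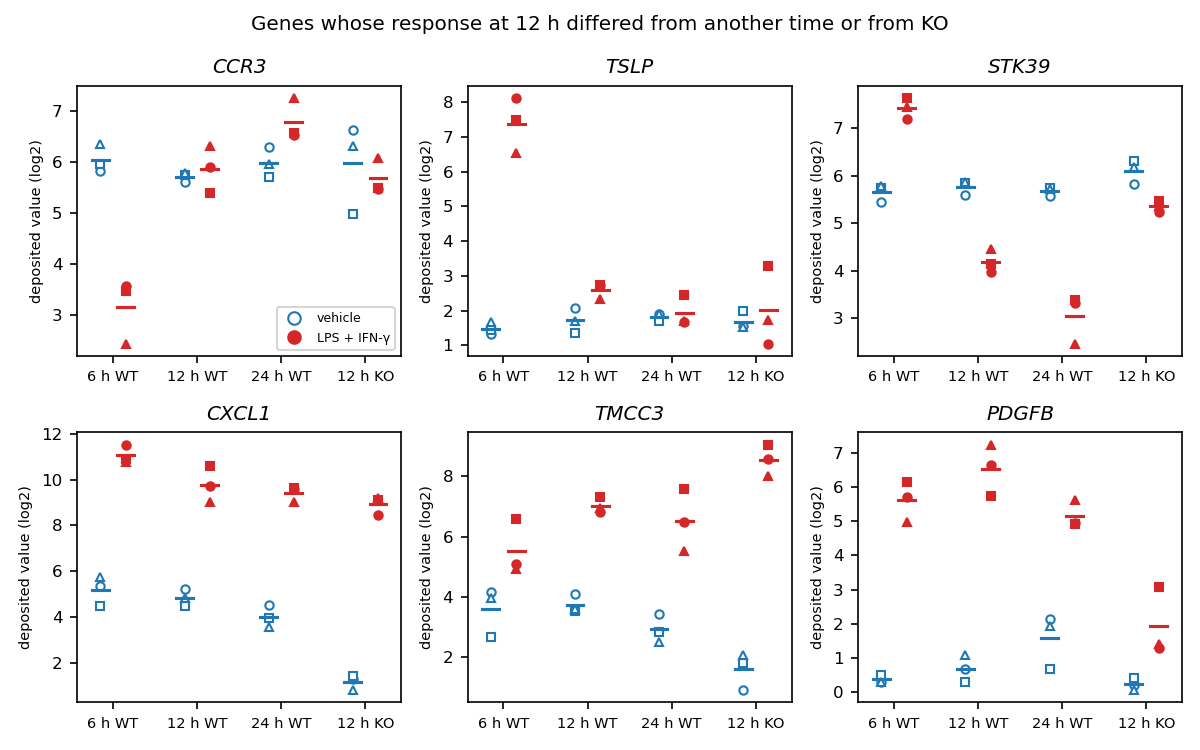
Deposited log2 value (y axis) of 6 genes in vehicle (open blue points) and stimulated (filled red points) libraries of WT at 6, 12 and 24 h and of KO at 12 h (x axis), 3 libraries per group. TSLP is high after 6 h of stimulation (6.54 to 8.11) and low after 12 h (2.33 to 2.73), and PDGFB reaches 5.73 to 7.24 in WT and 1.28 to 3.09 in KO at 12 h.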

How the data were processed

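RNA was extracted with RNeasy columns and sequenced after ribosomal RNA depletion, per the labels' protocols. The authors deposited one table of log2 values per Entrez gene for all 36 libraries. Its normalization, offset, counting rule and strand setting are not given in the sources used here, so reads of overlapping or antisense genes cannot be told apart. The submitters' processing notes name cutadapt 1.9.1, GSNAP and GRCh37.p5, with no role or order. Gene symbols were matched for 20609 of 21599 rows. Genes reaching 3.32 (log2 of 10) in at least 3 libraries were kept, which left 21232 and removed 367. Exactly 0 was listed for 7744 values.

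The deposited log2 values of all 36 libraries were fitted as 12 group means in limma 3.58.1 (R 4.3.3) with a trended prior, which left 24 residual degrees of freedom, and p-values were adjusted over all genes tested by the Benjamini-Hochberg method with a threshold of 0.05. Changes are on the log2 scale with SE from this fit, with 3 libraries per group. Differences in response were contrasts of contrasts in the same fit. Tables and figures were made in Python 3.11.15 with numpy 2.4.6, pandas 2.3.3 and matplotlib 3.10.9. On simulated data for the WT 12 h comparison with 21232 genes, 16 of 100 genes shifted by 1 and 64 of 100 shifted by 2 on the log2 scale were recovered, 0 of them in the wrong direction, with 8 false calls. Only these genes were shifted, far fewer than were called in the data, so recovery in the data may differ. Differences in response were not simulated.

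Same-numbered vehicle and stimulated libraries of WT at 12 h deviated together from their group means (r = 0.156, 0.234 and 0.352 across genes). Unlike numbers gave -0.244 to -0.006. Deviations from a group mean cancel out within the group, so like and unlike values offset each other and the unlike ones are no independent baseline. The numbers were taken to pair the samples. Even so, each SE, adjusted p and count is from the fit that ignores this pairing, unless the block or another alternative is named. The fit with replicate number as a block is printed where it changes a call or a count by over 1.5 times.

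The naming rule took 9 fixed genes, the 15 largest rises and 15 largest falls among called genes without overlap, the 6 largest changes of each list with its largest called rise and fall, the 8 largest differences in response in each direction, the 5 smallest adjusted p-values in each direction, and the 2 largest rises with each promoter motif. Uncharacterized loci, LINC, antisense and small RNA genes and pseudogenes were left out of the ranked parts. Values of some genes that the rule or the lists take in are not reported here. The comparison and the 39 gene lists (924 genes, of which 898 were tested) were chosen with earlier results of these data known. Promoters are RefSeq's of GRCh38.p14. Alternatives tried were other normalizations, filters, a pseudocount of 5, no trended prior, library weights, a fit on only the libraries compared, the replicate block and leaving out each library in turn.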

Additional observations from a re-analysis of the deposited data

Results flagged for a closer look

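The genes below were singled out because the test of a difference between responses called them, and each value is the difference of log2 changes with replicate numbers ignored. Chance can give such calls, and no cause was tested.

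For the WT response at 12 h minus that at 6 h, the differences were 3.05 for CCR3, 2.02 for ABHD16B and 1.66 for PRR12 on the higher side. On the lower side they were -5.02 for TSLP, -4.04 for ELF3, -3.67 for RGS7BP, -3.55 for SLC5A4, -3.35 for STK39, -3.26 for MAGEB1, -3.10 for EXT1 and -2.77 for EMP2. The calls of ABHD16B, ELF3, RGS7BP, SLC5A4 and MAGEB1 were lost in 7, 4, 9, 9 and 11 of the 12 fits that left out a library, with adjusted p up to 0.115, 0.0625, 0.142, 0.138 and 0.121, and those of the other genes listed were kept in all 12. In a fit on only the libraries compared, TSLP, STK39 and EXT1 alone were called.

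For the WT response at 24 h minus that at 12 h, the differences were 4.47 for LRRC31, 3.82 for CKMT1A and 1.72 for HEIH. Their calls were lost in 5, 6 and 7 of 12 such fits, with adjusted p up to 0.149. LRRC31 changed by 0.33 at 12 h and 4.80 at 24 h, CKMT1A by 1.46 and 5.28.

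For the response at 12 h in KO minus that in WT, the differences were 5.52 for DNASE1L3, 3.66 for TMCC3, 3.12 for PMFBP1, 2.81 for CXCL1, 2.61 for HOXD11, 1.95 for C4B_2, 1.87 for C4A and 1.79 for C4B. The C4 genes are near-identical copies and count as a single observation. On the lower side they were -6.32 for RASSF10, -4.29 for CAMK2N1, -4.15 for PDGFB, -4.09 for INKA1, -3.97 for BMP4, -3.86 for SYN3, -3.60 for LRRC15 and -3.55 for IQCJ-SCHIP1. Of these 16 genes, PMFBP1 and PDGFB kept their call in all 12 fits that left out a library, IQCJ-SCHIP1 lost it in 1 (without WT vehicle replicate 3, adjusted p 0.0535), and the other 13 lost it in 3 to 10. PMFBP1 and PDGFB each lost it in 1 of the 10 other alternatives, and TMCC3 in 0.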

How the results depend on the processing

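Calls in the WT 12 h comparison did not turn direction under any alternative run. With a filter that keeps the upper part of genes by mean level, 10616 genes were tested and 4593 called, 1848 higher and 2745 lower, and leaving out a library gave 6623 to 7560 calls (2979 to 3339 higher, 3644 to 4221 lower). With replicate number as a block 9495 genes were called, 4077 higher and 5418 lower, and all 8177 calls were kept. Of 943 list members and named genes 617 were called, 493 of them without each of the 6 libraries in turn and 617 with the block, and 49 of the 326 not called were called without at least 1 library. PDGFRA passed with the block (adjusted p 0.0518, with block 0.0342), as did CDKN1B. The block otherwise changed list counts by over 1.5 times only where the report says so. Median centring and quantile normalization moved no named gene or list past these limits. The deposited libraries already share nearly one distribution, so these settings could change little and do not test the authors' normalization.

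Counts of genes whose response differed depended strongly on the processing. For 12 h against 6 h (16, 3 higher and 13 lower) the count was 57 (14 and 43) with a pseudocount of 5, 9 (6 lower) with the stricter filter, 26 (7 higher) without the trended prior, 688 (340 and 348) with library weights, whose estimation stopped before it converged, 3 (0 and 3) with only the libraries compared, 111 (53 and 58) with the replicate block and 8 to 29 (2 to 8 and 6 to 21) without a library. For 24 h against 12 h (4 higher) it was 18 (14 and 4), 7 (1 lower) with the stricter filter, 536 (276 and 260), 0 with only the libraries compared (limma, 1418 at an unadjusted p below 0.05), 44 (22 and 22) with the replicate block and 0 to 17 (0 to 10 and 0 to 8). For KO against WT (34, 13 and 21) it was 82 (31 and 51), 0 with the stricter filter (limma, 527 at an unadjusted p below 0.05), 33 lower without the trended prior, 1117 (572 and 545), 4 (3 and 1), 115 (44 and 71) with the replicate block and 4 to 83 (2 to 32 and 2 to 51). Added after seeing the data, leaving out the WT 24 h stimulated replicate 3 and KO 6 h stimulated replicate 2 libraries, which correlated least with their groups, gave 76 (33 and 43), 17 (14 and 3) and 78 (39 and 39), and a replicate block within each genotype gave 253 (124 and 129), 123 (56 and 67) and 206 (79 and 127). The cause was not tested. Depth is unknown, and 3 libraries a group limit the precision. Most shifts of 1 on the log2 scale were not recovered in simulated data for the WT 12 h comparison. Few genes were shifted there and differences in response were not simulated, so that recovery does not describe these counts.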
